A study of Mus musculus with 38 samples.

Results

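Inhibitory synapses of the hippocampus were followed through 26 genes: the listed subunits of receptors for GABA and glycine, their scaffold and adhesion proteins, the enzymes and transporters that make, load and clear GABA, the cation-chloride cotransporters, and 3 genes that mark inhibitory neurons. The genes were taken from a fixed list of symbols, matched by Ensembl identifier, and all 26 were found among the 48709 genes counted in each mouse. GABA opens chloride channels built from GABA-A receptor subunits and acts more slowly through the GABA-B receptor, a heteromer of Gabbr1 and Gabbr2. The direction of the chloride current depends on the cotransporters that carry chloride out of the neuron (Slc12a5) or into it (Slc12a2). In the hippocampus, GABA is released by scattered interneurons, which differ in their marker proteins and in the part of the target cell they contact.

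RNA was sequenced from the hippocampus of 38 C57BL/6 mice that were either WT or APPPS1ΔE9. The latter line, used to model Alzheimer's disease, carries an APP transgene with the Swedish mutation and a PS1ΔE9 transgene. The mice received placebo chow or chow with anle138b, a diphenylpyrazole compound. Treatment lasted 4 months. The pre-plaque mice began it at 2 months, were analysed at 6 months and comprised 4 WT placebo, 4 WT anle138b, 4 APPPS1ΔE9 placebo and 4 APPPS1ΔE9 anle138b mice. The post-plaque mice began it at 6 months, were analysed at 10 months and comprised 5 WT placebo, 5 WT anle138b, 5 APPPS1ΔE9 placebo and 7 APPPS1ΔE9 anle138b mice. The promoter that drives the transgenes is not given in the sources used here, and the libraries are from bulk tissue, so fewer cells of a type and less RNA per cell cannot be told apart.

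The libraries held between 15847985 and 31895808 counts, with a median of 24530658. The 4 WT placebo libraries at 6 months carry the transgenic genotype in another label, and were taken as WT from their titles. App and Prnp did not go against this, and App was lower in them by a log2 difference of 1.26 than in APPPS1ΔE9 placebo mice, without overlap. The lane in the titles follows the groups. At 6 months the WT placebo mice were all in lane 4, the APPPS1ΔE9 placebo mice all in lane 5 and the APPPS1ΔE9 anle138b mice all in lane 6, with the WT anle138b mice in lanes 4 and 5. At 10 months 4 of 5 WT placebo mice were in lane 3, all WT anle138b mice in lane 4, all APPPS1ΔE9 placebo mice in lane 5 and 6 of 7 APPPS1ΔE9 anle138b mice in lane 6. Lane can therefore not be told apart from genotype or treatment in most comparisons, those of Gabrg1 included. Markers of the hippocampus were present in every mouse, with 659 to 895 CPM (counts scaled to the library size) summed over 8 markers of CA pyramidal cells. Markers of neighbouring tissue were uneven. At 6 months, 10 mice had 3954 to 7938 CPM over 7 markers of choroid plexus and the other 6 had 65.3 to 716. At 10 months, 9 mice had 219 to 372 CPM over 7 markers of dentate granule cells and the other 13 had 561 to 900. The mice were described as male, but Xist was above 1000 CPM in 12 mice, of which 11 were WT, so Xist-expressing mice were unevenly spread over the genotypes. Among placebo mice they were 3 of 4 WT and 0 of 4 APPPS1ΔE9 mice at 6 months, and 3 of 5 and 0 of 5 at 10 months. Genotype can therefore only partly be told apart from Xist expression in the placebo comparisons.

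Per length of transcript, the order of the mean levels over the 38 mice began with Gabbr1, the ligand-binding GABA-B subunit, at 94.1 ± 3.93 RPKM (SD, n = 38). Slc12a5 followed at 73.4 ± 6.12 RPKM and Gabra5, a GABA-A subunit that is abundant in the hippocampus and often extrasynaptic, at 71.3 ± 8.76 RPKM. The levels of Slc12a5 and Gabra5 did not differ beyond their spread. Gabbr2 was at 52.8 ± 2.94 RPKM. Gad1, which makes most of the basal GABA, was at 45.7 ± 5.01 RPKM and Gad2, its partner at nerve terminals, at 32 ± 4.55 RPKM. The postsynaptic adhesion protein Nlgn2 was at 43.5 RPKM, the glycine receptor subunit Glrb at 39.9 RPKM and the scaffold gephyrin, Gphn, at 24.7 RPKM. Low on this scale were Glra2 at 3.22 RPKM, Gabrg1 at 3.16 RPKM and Gabrg3 at 2.3 RPKM, whose order is within their spread. Glra3, a glycine receptor alpha subunit, was the lowest of the 26 at 0.596 ± 0.226 RPKM.

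The members differed in how much mice of the same group varied. Gphn had a within-group SD of 0.060 on the log2 CPM scale and Gabbr1 of 0.063, lower than in all but 1.11% and 1.88% of the 18232 genes tested. At the other end were Gabrd, a subunit of extrasynaptic receptors of dentate granule cells, with an SD of 0.50, Glra3 with 0.62 and Gabra3 with 0.73. The SD of Gabra3 was at the 96.1 percentile of all tested genes. Pooled over both ages, Gphn and the GABA-B genes were thus the steadiest of the 26, and these receptor subunits the most variable. The spread of the latter was mainly that of the 10-month mice. As a percentage of the mean, the SD of Gabra3 was 4.16 to 15.9% in the 6-month groups and 52.4 to 70.8% in the 10-month groups. That of Gabrd was 6.02 to 12.2% and 24.8 to 49.8%.

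None of the 26 genes passed an adjusted p of 0.1 in any of the 8 comparisons between pairs of groups (edgeR quasi-likelihood test, adjusted over all genes), although all 26 passed the filter on low counts in each. The share of all genes past this threshold was also small. In placebo mice at 6 months it was 0.0715% for APPPS1ΔE9 against WT, and in anle138b mice 0.047%. For anle138b against placebo at 6 months it was 0.0529% in APPPS1ΔE9 and 0.0% in WT mice. At 10 months the genotype comparisons gave 0.324% in placebo and 0.723% in anle138b mice, and the treatment comparisons gave 0.0% in both genotypes. With DESeq2, 1 member, Gabrg1, passed in placebo mice at 6 months and 1, again Gabrg1, for anle138b against placebo in APPPS1ΔE9 mice at 6 months, with 0 in the other 6 comparisons. DESeq2 called 0.5% of all genes in the former and 1.35% in the latter.

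Counted at an unadjusted p under 0.05, members were 5 of 26 for genotype in placebo mice at 6 months, where 11.1% of all genes were, and 3 of 26 in anle138b mice, against 5.64%. For anle138b against placebo at 6 months they were 3 of 26 in APPPS1ΔE9 mice, against 13.1%, and 1 of 26 in WT mice, against 1.85%. At 10 months they were 0 of 26 for genotype in placebo mice, against 4.1%, and 4 of 26 in anle138b mice, against 5.78%. For treatment at 10 months they were 0 of 26 in both genotypes, against 1.48% in APPPS1ΔE9 and 1.25% in WT mice. The medians of the 26 log2 fold changes lay between -0.132, for genotype in anle138b mice at 10 months, and 0.062, for anle138b in APPPS1ΔE9 mice at 6 months. The medians over all genes were -0.0025 and -0.0022 in the same comparisons.

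**Figure D1:**
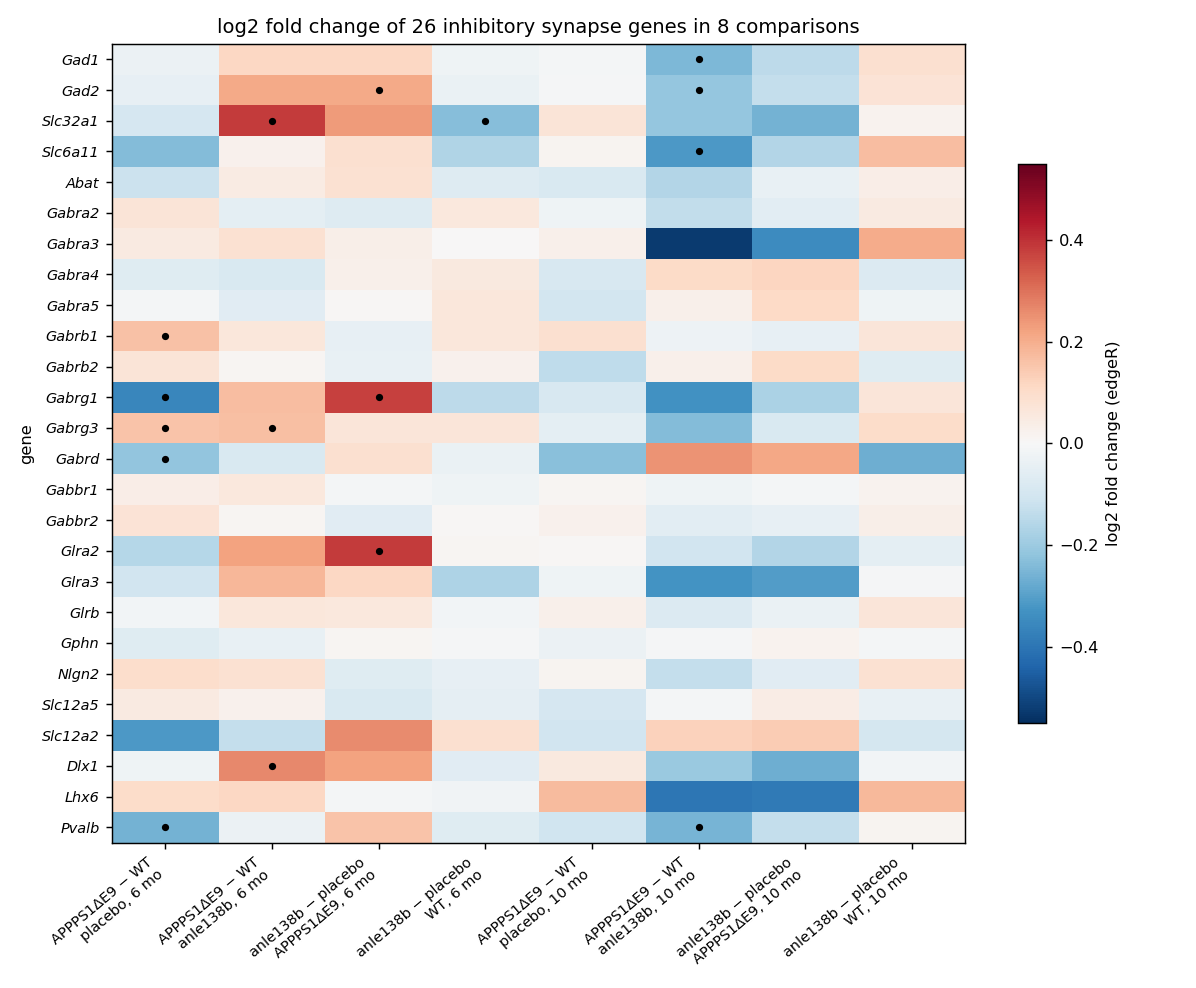
Log2 fold change of the 26 genes (vertical axis) in the 8 comparisons of pairs of groups (horizontal axis), from edgeR, with red for higher and blue for lower in the group named before the minus sign. Dots mark an unadjusted p under 0.05; there are 5, 3, 3, 1, 0, 4, 0 and 0 from left to right, and no gene passed an adjusted p of 0.1.

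Gabrg1, the gamma1 subunit of the GABA-A receptor, had the smallest p of the 26 genes in 2 of these comparisons. It lies at chr5:70751047-70842617 on the minus strand (GRCm38). At 6 months, the WT placebo mice had 31.4, 35.2, 33.2 and 30.6 CPM, with a mean of 32.6 ± 2.04 (SD, n = 4). The APPPS1ΔE9 placebo mice had 28.6, 24.3, 23.6 and 24.2 CPM, with a mean of 25.2 ± 2.33 (SD, n = 4). All 4 APPPS1ΔE9 placebo mice were below all 4 WT placebo mice. The APPPS1ΔE9 anle138b mice had 28.9, 37.2, 35.1 and 31.3 CPM and the WT anle138b mice 26.4, 26.3, 35.1 and 28.7 CPM. The APPPS1ΔE9 anle138b mice were all above the APPPS1ΔE9 placebo mice, with a smallest gap of less than 1 CPM, and their range overlapped with both WT groups.

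For genotype in placebo mice, the log2 fold change of Gabrg1 was -0.36 (SE 0.075), with an unadjusted p of 0.00034 and an edgeR adjusted p of 0.228. For anle138b in APPPS1ΔE9 mice it was 0.38 (SE 0.088), with an unadjusted p of 0.00094 and an edgeR adjusted p of 0.280. Both comparisons contain the same 4 APPPS1ΔE9 placebo mice, so the opposite signs are not independent. Gabrg1 ranked 24 of 16774 genes in the former and 56 of 17009 in the latter by p. Besides Gabrg1, the members without overlap were Pvalb, lower in APPPS1ΔE9 placebo mice, and Gad1, higher with anle138b in APPPS1ΔE9 mice, so 2 of 26 in each. Over all genes, 4.51% were lower without overlap in the former comparison and 3.38% higher in the latter. In the anle138b mice Lhx6 alone was higher without overlap in APPPS1ΔE9 mice, 1 of 26, against 2.81% of all genes, and no member was without overlap in the other 5 comparisons. In these, 1.68% of all genes did not overlap for anle138b in WT mice at 6 months, 1.41% and 0.892% for genotype at 10 months in placebo and in anle138b mice, and 0.0468% and 0.253% for anle138b at 10 months in APPPS1ΔE9 and in WT mice.

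The call on Gabrg1 depended on the test. With DESeq2 the adjusted p was 0.0266 for genotype and 0.0327 for treatment. Without a filter on low counts, the edgeR adjusted p was 0.0217 and 0.0144, with 0.354% and 0.382% of all genes called. Without replicate 1 of the APPPS1ΔE9 placebo mice, at 28.6 CPM, Gabrg1 also passed in the edgeR test with the filter. The log2 fold changes were then -0.43 and 0.45, and the edgeR adjusted p 0.0269 and 0.0394. The 3 mice left in that group all had few choroid plexus markers, against 1 of the WT placebo mice, and more of all genes were called for genotype. With replicate 1 kept and the dentate marker level as a covariate, Gabrg1 passed for treatment as well (edgeR adjusted p = 0.0594), again with more of all genes called. Over all alternatives, the adjusted p of Gabrg1 ran from 0.0217 to 0.996 for genotype and from 0.0144 to 0.662 for treatment, with the sign kept in each. With Y-linked expression as a covariate, the log2 fold change for genotype was -0.36 (edgeR adjusted p = 0.996). The difference between the treatment effects of the 2 genotypes was 0.52 on the log2 scale (SE 0.32, edgeR adjusted p = 0.837) in a model of all 38 mice. In a model of the 16 mice at 6 months it was 0.53 (SE 0.13, edgeR adjusted p = 0.516).

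The choroid plexus markers were unevenly spread over the groups of the Gabrg1 comparisons, with 7 of 7 lower in the APPPS1ΔE9 than in the WT placebo mice. Over the 16 mice at 6 months, Gabrg1 was 26.3 to 37.2 CPM in those with many and 23.6 to 31.3 CPM in those with few of them, which overlap. Of the APPPS1ΔE9 placebo mice, replicates 2, 3 and 4 had marker sums of 65.3, 716 and 188 CPM and replicate 1 had 6644 CPM. In each of the other 6-month groups only replicate 4 was under 1000 CPM. Among the mice under 1000 CPM, Gabrg1 was 24.3, 23.6 and 24.2 CPM in the APPPS1ΔE9 placebo mice, 30.6 in WT placebo, 28.7 in WT anle138b and 31.3 in APPPS1ΔE9 anle138b. Among those over 1000 CPM, the APPPS1ΔE9 placebo mouse had 28.6 CPM and the WT placebo mice 31.4 to 35.2. Each of these sets holds only 1 mouse of either the WT or the APPPS1ΔE9 placebo group. With the choroid plexus level as a covariate, the log2 fold changes of Gabrg1 were -0.27 and 0.29, with edgeR adjusted p of 0.708 and 0.662. The part of the choroid plexus in these changes was not tested further.

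**Figure D2:**
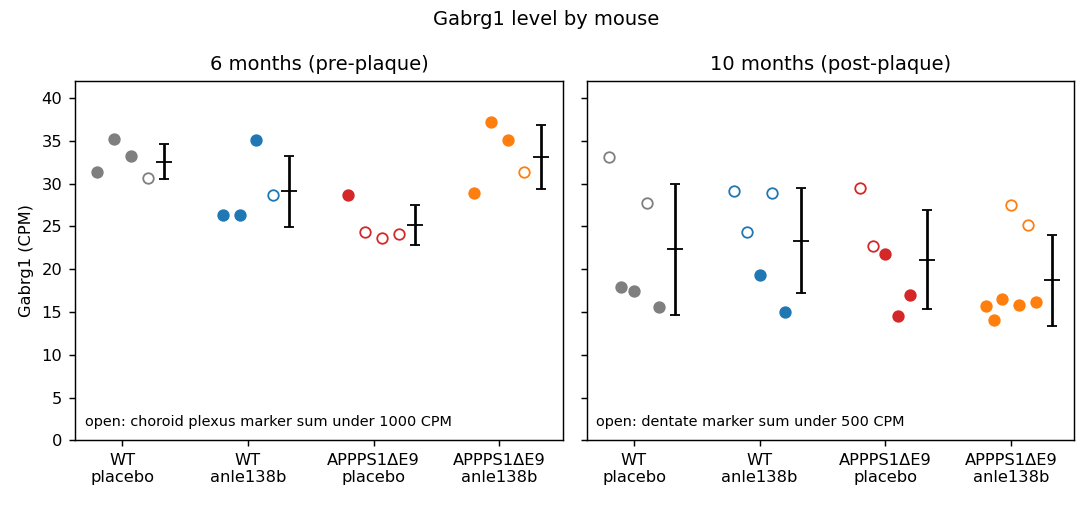
Gabrg1 level in CPM (vertical axis, linear from 0) in each of 38 mice by group, with the mean and SD beside the points. At 6 months the 4 APPPS1ΔE9 placebo mice sit between 23.6 and 28.6 CPM, below the WT placebo mice at 30.6 to 35.2; open symbols mark mice with few choroid plexus markers at 6 months and few dentate markers at 10 months, and the latter are the highest in each 10-month group.

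The stretches before the start of Gabrg1, Slc32a1 and Pvalb are shown, the first pair because they had the smallest p of the members in a comparison at 6 months and Pvalb because it was lower without overlap in the same comparison as Gabrg1. They are the 250 bases upstream of the RefSeq start (GRCm38.p6), 5′ to 3′ on the strand of the gene, with matches to the homeodomain core TAATTA in capitals. Gabrg1 is at chr5:70842618-70842867 (minus strand), Pvalb at chr15:78206401-78206650 (minus strand) and Slc32a1 at chr2:158610508-158610757 (plus strand).
Gabrg1: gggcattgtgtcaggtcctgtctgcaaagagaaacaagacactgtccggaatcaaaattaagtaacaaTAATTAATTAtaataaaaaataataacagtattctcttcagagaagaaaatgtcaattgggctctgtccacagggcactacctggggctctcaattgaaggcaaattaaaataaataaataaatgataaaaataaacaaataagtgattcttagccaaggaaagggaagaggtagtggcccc
Pvalb: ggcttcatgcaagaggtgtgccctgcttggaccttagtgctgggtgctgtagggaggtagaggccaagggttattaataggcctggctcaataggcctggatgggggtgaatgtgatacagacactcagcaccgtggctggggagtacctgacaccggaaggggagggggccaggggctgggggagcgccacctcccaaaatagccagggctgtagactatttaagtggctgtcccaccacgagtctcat
Slc32a1: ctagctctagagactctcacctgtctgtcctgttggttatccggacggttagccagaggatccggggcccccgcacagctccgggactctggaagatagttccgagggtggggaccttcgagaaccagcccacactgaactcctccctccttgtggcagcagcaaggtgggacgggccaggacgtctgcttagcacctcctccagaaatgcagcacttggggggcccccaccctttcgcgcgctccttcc
The Gabrg1 window had a GC content of 35.6% and 1 CpG, whereas Pvalb had 58.4% with 4 CpG and Slc32a1 62.4% with 12 CpG. Gabrg1 held 2 overlapping matches to TAATTA, from 182 to 177 and from 178 to 173 bases before the start. Windows were found for 23 of the 26 members, 31 in all, and Gabrg1 was the only member with TAATTA, a motif present in 4.84% of the 32851 windows of all genes. The cAMP-response element TGACGTCA was in 0 of the 31 windows, against 1.55% of all. The TATA motif TATAAA was in 5 windows, of Gad1, Gabrb2, Gabra3 and Glra2, against 12.4% of all, and GGGCGG was in 16, against 32.7%. Each motif was searched on both strands, and a match is a description of the letters only.

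Of the 3 members that mark interneurons, Pvalb, the calcium buffer of fast-spiking cells, was lower without overlap in the APPPS1ΔE9 placebo mice at 6 months, while the log2 fold changes of Lhx6 and Dlx1 were 0.10 and -0.023. Of 23 further genes of interneuron identity, 10 were higher and 13 lower, with a median of -0.0044. Without overlap, 4 of these 23 were lower and 0 higher, where 4.51% of all genes were lower without overlap. At an unadjusted p under 0.05, 3 were lower and 1 higher, against 11.1% of all genes in either direction. The WT placebo mice had 37.7, 36.9, 34.5 and 38.5 CPM and the APPPS1ΔE9 placebo mice 32.3, 24.6, 34.1 and 31.4 CPM. The groups did not overlap, with 34.1 and 34.5 CPM as nearest values. The log2 fold change was -0.26 (SE 0.092), with an edgeR adjusted p of 0.386. With anle138b, Pvalb was 35, 30.3, 36 and 37.7 CPM in WT and 31.8, 36.8, 32.1 and 37.3 CPM in APPPS1ΔE9 mice, which overlap. At 10 months Pvalb was 25.8, 25.6, 34.3, 28.7 and 25.5 CPM in WT placebo and 26.5, 26.6, 29.4, 26.8 and 21.3 CPM in APPPS1ΔE9 placebo mice. The anle138b mice at 10 months had 24.1 to 31.9 CPM in WT, with a median of 28.5, and 18.7 to 29.9 CPM in APPPS1ΔE9, with a median of 23. Averaged over the 4 pairs of groups, Pvalb was lower in APPPS1ΔE9 mice by a log2 difference of -0.16 (SE 0.055, edgeR adjusted p = 0.243), the smallest p of the members for genotype.

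The receptor genes Gabrb1, Gabrg3 and Gabrd also had an unadjusted p under 0.05 for genotype in placebo mice at 6 months. Gabrb1, a beta subunit, was 266, 284, 289 and 308 CPM in WT and 298, 326, 320 and 324 CPM in APPPS1ΔE9 mice, a log2 fold change of 0.16 (SE 0.059). Gabrg3, a further gamma subunit, had a log2 fold change of 0.16 (SE 0.070) and Gabrd one of -0.22 (SE 0.084). All 3 overlapped between the groups, and their edgeR adjusted p was 0.39 or higher. In anle138b mice Gabrg3 was again higher in APPPS1ΔE9 mice, by 0.16 (SE 0.074, edgeR adjusted p = 0.836).

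On the presynaptic side, Slc32a1, which loads GABA and glycine into vesicles, differed most in anle138b mice. At 6 months the WT anle138b mice had 47.6, 53.1, 59.2 and 50.8 CPM and the APPPS1ΔE9 anle138b mice 71.8, 82.6, 69.7 and 54.4 CPM. Replicates 1 to 3 of the APPPS1ΔE9 mice were above all WT mice, while replicate 4 was within their range. The placebo mice had 67.2, 57.6, 71.9 and 54.6 CPM in WT and 54.9, 59.7, 62.3 and 56.8 CPM in APPPS1ΔE9. The log2 fold change for genotype in anle138b mice was 0.39 (SE 0.125, edgeR adjusted p = 0.836). Without replicate 4 of the APPPS1ΔE9 anle138b mice it was 0.49 with an edgeR adjusted p of 0.0787, where its alternatives ran from 0.0787 to 0.9995. In WT mice, anle138b against placebo gave -0.23 (SE 0.093), with an unadjusted p of 0.0278.

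The GABA-synthesizing enzymes were, like Slc32a1, highest on average in the APPPS1ΔE9 anle138b mice at 6 months, with overlap. Gad1 was 349, 349, 399 and 373 CPM in WT placebo, 322, 331, 399 and 372 CPM in WT anle138b, 366, 361, 350 and 345 CPM in APPPS1ΔE9 placebo, and 383, 420, 383 and 373 CPM in APPPS1ΔE9 anle138b mice. The last group was above APPPS1ΔE9 placebo without overlap, by a log2 fold change of 0.11 (SE 0.053, edgeR adjusted p = 0.38). Gad2 was 183, 187, 242 and 192 CPM in WT placebo and 170, 182, 225 and 195 CPM in WT anle138b mice. In APPPS1ΔE9 mice Gad2 was 196, 185, 202 and 190 CPM with placebo and 202, 263, 225 and 214 CPM with anle138b, where 202 CPM occurs in both groups. The log2 fold change of Gad2 for anle138b in APPPS1ΔE9 mice was 0.21 (SE 0.072, edgeR adjusted p = 0.324). In the same comparison markers of other tissue were higher too: 7 of 7 of choroid plexus with a median log2 fold change of 1.18, 5 of 8 of striatum with a median of 0.41, and 6 of 7 of neocortex with a median of 0.17. Of the hypothalamus and pituitary markers, 4 of 4 tested were higher, with a median of 1.11. Their sums were low, at 3.53 to 11.5 CPM with anle138b and 1.81 to 4.41 CPM with placebo. The striatal markers summed to 131, 155, 135 and 89.0 CPM in the APPPS1ΔE9 anle138b mice and to 122, 76.8, 87.8 and 122 CPM in the APPPS1ΔE9 placebo mice, so replicates 1 to 3 of the treated mice were high in them as in Slc32a1. The WT anle138b mice had 146, 126, 129 and 91.5 CPM of striatal markers, with Slc32a1 at only 47.6, 53.1, 59.2 and 50.8 CPM. The WT placebo mice had 113, 148, 142 and 87.3 CPM of them, with Slc32a1 at 67.2, 57.6, 71.9 and 54.6 CPM. The part of these tissues in the values of Slc32a1, Gad1 and Gad2 was not tested.

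The glycine receptor subunit Glra2 was 11.1, 9.14, 12.1 and 9.59 CPM in APPPS1ΔE9 placebo and 13.8, 15.8, 14.5 and 11 CPM in APPPS1ΔE9 anle138b mice at 6 months. The log2 fold change was 0.38 (SE 0.124, edgeR adjusted p = 0.312), and the groups overlapped by replicate 4 of the treated mice. Dlx1, a homeobox factor of interneurons, was 26.1, 29.3, 33.6 and 29 CPM in WT anle138b and 37.7, 39.6, 36.3 and 29.9 CPM in APPPS1ΔE9 anle138b mice, a log2 fold change of 0.27 (SE 0.1, edgeR adjusted p = 0.836). Again replicate 4 of the APPPS1ΔE9 mice was within the range of the WT mice. This mouse was the one of its group with few choroid plexus markers, at 175 CPM against 6135 to 7530. Lhx6, a factor of interneurons from the medial ganglionic eminence, was 18.8, 18, 19.4 and 18.9 CPM in WT and 21.2, 20.3, 19.8 and 21.2 CPM in APPPS1ΔE9 anle138b mice.

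Other receptor, scaffold and transport genes overlapped between the groups at 6 months. Gabra4, an alpha subunit of dentate granule cells, was the lower member with the smallest p for genotype in anle138b mice, at 128, 119, 127 and 136 CPM in WT and 112, 115, 122 and 138 CPM in APPPS1ΔE9, a log2 fold change of -0.09. Slc12a5 was 512, 578, 527 and 510 CPM in APPPS1ΔE9 placebo and 529, 503, 487 and 516 CPM in APPPS1ΔE9 anle138b mice, a log2 fold change of -0.08. Gabrb1 was 266 to 308 CPM in WT placebo and 276 to 303 CPM in WT anle138b mice, a log2 fold change of 0.06. Gphn was between 88.2 and 103 CPM in all 16 mice at 6 months. Slc6a11, the GABA transporter of astrocytes, was 139 to 172 CPM in APPPS1ΔE9 placebo and 164 to 235 CPM in WT placebo mice, a log2 fold change of -0.24 with an unadjusted p over 0.05.

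At 10 months the mice fell into separate sets by tissue markers. The 9 mice with 219 to 372 CPM of dentate granule cell markers were replicates 1 and 4 of WT placebo, 1, 2 and 4 of WT anle138b, 1 and 2 of APPPS1ΔE9 placebo, and 4 and 6 of APPPS1ΔE9 anle138b. Their oligodendrocyte markers summed to 2372 to 3953 CPM, against 5202 to 7690 in the other 13 mice, and their thalamus markers to 348 to 385 against 409 to 501 CPM. Markers of interneuron identity were 1526 to 1825 CPM in the 9 mice and 1225 to 1424 in the others, none overlapping. Markers of CA pyramidal cells, astrocytes and neocortex overlapped between the sets. In the 16 mice at 6 months the dentate sum was 397 to 534 CPM, between these sets.

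Among the members, 10 did not overlap between the 9 and the 13 mice, 9 of them higher in the 9 mice and 1 lower, where 11.4% of 15011 genes did not overlap. The sets were defined on the data, so these values are given without a test. Of the receptor subunits, Gabra3 was 92.1 to 129 CPM in the 9 mice and 26.3 to 71.9 CPM in the 13. Gabrg3 was 29.7 to 37.3 against 19 to 25 CPM, Gabra2, a synaptic alpha subunit, 279 to 382 against 208 to 270 CPM, and Gabrg1 22.7 to 33.1 against 14.1 to 21.8 CPM. Glra3 was 5.97 to 8.68 against 1.89 to 4.74 CPM. Gabra3 was 69.3 to 100 CPM in the 16 mice at 6 months, a range that overlaps both sets.

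Both GABA-synthesizing enzymes were higher in the same 9 mice. Gad1 was 343 to 415 against 280 to 335 CPM and Gad2 179 to 218 against 146 to 170 CPM, while the astrocytic transporter Slc6a11 was 144 to 211 against 106 to 141 CPM. The interneuron factor Lhx6 was 20.5 to 32.5 against 12.3 to 20 CPM. Pvalb overlapped between the sets, at 24.1 to 31.9 against 18.7 to 34.3 CPM, as did Slc32a1 at 48.0 to 69.3 against 34.8 to 52 CPM and Abat at 261 to 344 against 231 to 264 CPM.

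Gabrd and Gabra4, subunits of dentate granule cells, overlapped between the sets but had lower medians in the 9 mice. Few dentate markers defined these 9 mice. Gabrd was 11.2 to 27.6 CPM in them and 26.6 to 42.7 CPM in the others, which overlap by 1 mouse on either side. Gabra4 was 91.8 to 121 against 119 to 155 CPM. Its neighbour on chromosome 5, Gabrb1, which starts head to head with it and shares 46 exonic bases on the opposite strand, was 272 to 379 against 243 to 350 CPM and so lay the other way. Slc12a2, the chloride importer, was the member that was lower without overlap, at 56.5 to 76.4 against 78.8 to 117 CPM. Gphn, Gabbr1 and Gabbr2 overlapped widely, for example Gphn at 81.0 to 98.8 against 88.5 to 94.8 CPM.

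**Figure D3:**
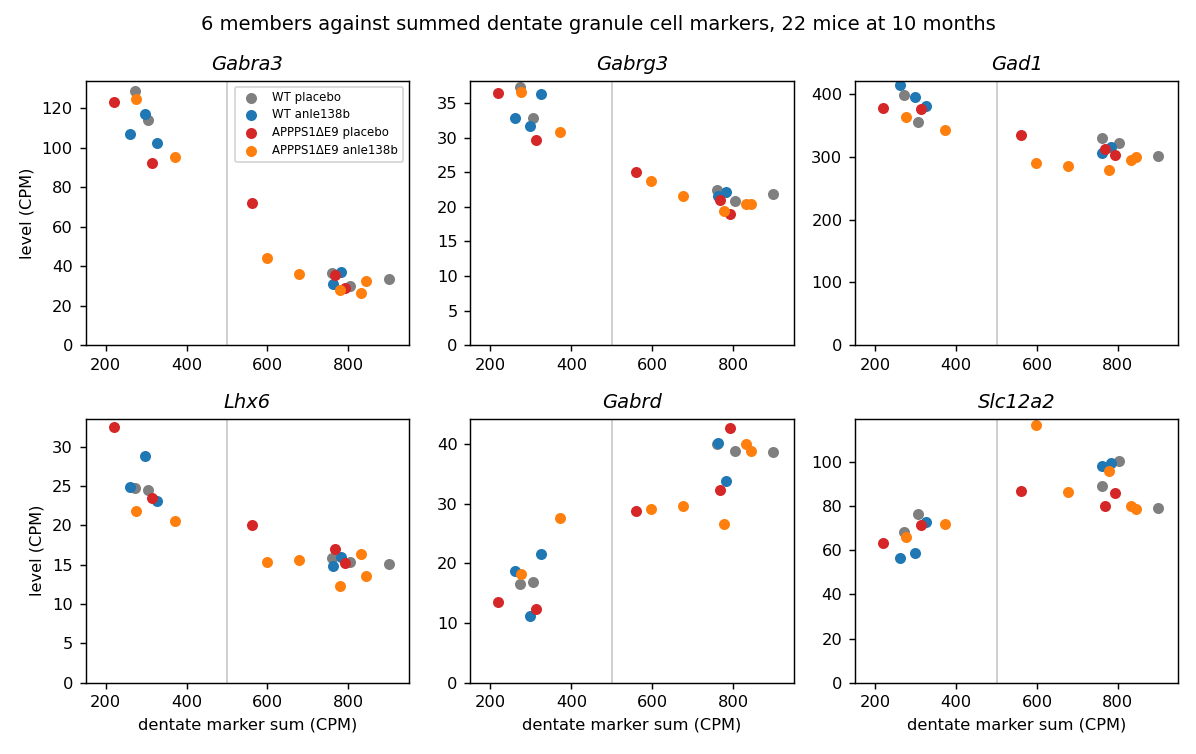
Level in CPM (vertical axis) of 6 members against the sum of 7 dentate granule cell markers in CPM (horizontal axis) in the 22 mice at 10 months, coloured by group, with a line at 500 CPM. Gabra3, Gabrg3, Gad1 and Lhx6 are higher and Slc12a2 is lower in the 9 mice left of the line, and each of the 4 groups has 2 or 3 mice there.

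Each 10-month group held mice of both sets: 2 of 5 WT placebo, 3 of 5 WT anle138b, 2 of 5 APPPS1ΔE9 placebo and 2 of 7 APPPS1ΔE9 anle138b mice had few dentate markers. The share was thus highest in WT anle138b and lowest in APPPS1ΔE9 anle138b mice, the groups compared for genotype under anle138b. In that comparison 21 of 26 members were lower and 5 higher in APPPS1ΔE9 mice, where 49.0% of all genes were higher, and Gad1, Gad2, Pvalb and Slc6a11 had an unadjusted p under 0.05. Gad1 was 415, 381, 307, 396 and 317 CPM in WT anle138b mice and 280 to 364 CPM, with a median of 296, in the 7 APPPS1ΔE9 anle138b mice. The log2 fold change of Gad1 was -0.25 (SE 0.091, edgeR adjusted p = 0.72), that of Gad2 -0.21 (SE 0.086), of Pvalb -0.26 (SE 0.109) and of Slc6a11 -0.32 (SE 0.135). Among mice over 500 CPM of dentate markers, Gad1 changed by -0.11 (SE 0.052), Gad2 by -0.10, Slc6a11 by -0.083 and Pvalb by -0.35 (SE 0.129), with an edgeR adjusted p of 0.9997 for each, from 2 WT and 5 APPPS1ΔE9 mice.

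Gad2 in the WT anle138b mice at 10 months was 204, 192, 164, 216 and 168 CPM, and in the 7 APPPS1ΔE9 anle138b mice 146 to 194 CPM with a median of 162. Gad1 was 357, 323, 330, 399 and 302 CPM in WT placebo and 379, 377, 335, 313 and 304 CPM in APPPS1ΔE9 placebo mice. In the same order of groups Gad2 was 202, 170, 170, 204 and 152 CPM and 202, 218, 169, 156 and 156 CPM. The high values of both enzymes in every group belonged to the mice with few dentate markers. Slc32a1 was 48.0, 51.2, 49.1, 55.9 and 44.0 CPM in WT placebo, 59.1, 53.6, 41.7, 52.4 and 44.3 CPM in WT anle138b, 69.3, 54.3, 52, 45.1 and 41.5 CPM in APPPS1ΔE9 placebo, and 34.8 to 53 CPM, with a median of 40.5, in APPPS1ΔE9 anle138b mice. All 4 groups overlapped.

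The other members with the smallest p in a direction at 10 months were Lhx6, Gabrb2, Gabra4 and Nlgn2. For genotype in placebo mice, Lhx6 was 24.5, 15.4, 15.8, 24.7 and 15 CPM in WT and 32.5, 23.5, 20, 17 and 15.2 CPM in APPPS1ΔE9 mice, a log2 fold change of 0.17. Without replicate 1 of the APPPS1ΔE9 placebo mice it was -0.017. Gabrb2, a beta subunit, was 134, 122, 135, 143 and 134 CPM in WT and 104 to 137 CPM, with a median of 128, in APPPS1ΔE9 placebo mice, a log2 fold change of -0.14. Gabrb2 was 0.11 higher with anle138b than with placebo in APPPS1ΔE9 mice and 0.066 lower in WT mice on the log2 scale, both within the spread. Lhx6 with anle138b in APPPS1ΔE9 mice was 12.3 to 21.8 CPM with a median of 15.6, a log2 fold change of -0.39 (SE 0.190) from placebo. Gabra4 was 0.11 higher in APPPS1ΔE9 than in WT anle138b mice on the log2 scale, and -0.010 among mice over 500 CPM of dentate markers. Nlgn2 was 0.083 higher with anle138b in WT mice, and -0.040 among the mice over 500 CPM. The edgeR adjusted p was 0.8 or higher for each of these.

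Over all 38 mice in 1 model, 0 of 26 members passed for genotype, where 1.46% of 18232 genes did, and 0 of 26 for anle138b, where 0.0% did. At an unadjusted p under 0.05, 1 member, Pvalb, was counted for genotype, against 8.91% of all genes, and 0 for anle138b, against 4.81%. DESeq2 also gave 0 in both. The largest genotype differences after Pvalb by p were those of Slc6a11 at -0.13 (SE 0.072) and Abat, the transaminase that breaks GABA down, at -0.078 (SE 0.047) on the log2 scale. With the dentate marker level as a covariate, Gabrg1, Slc6a11 and Abat passed, all lower in APPPS1ΔE9 mice, by -0.18, -0.14 and -0.088, with an edgeR adjusted p of 0.0558, 0.0533 and 0.0375. With this covariate 3.66% of all genes passed. Across the alternatives, the adjusted p of these 3 genes reached up to 0.99999, 0.786 and 0.99999. No member passed for the difference of the anle138b effect between genotypes, at 6 or at 10 months, or of the genotype effect between ages. Over all genes, 0.0%, 0.0% and 0.176% passed in these tests, and members at an unadjusted p under 0.05 were 1 (Slc32a1, 0.47 on the log2 scale), 1 (Lhx6, -0.57) and 0, against 6.54%, 3.14% and 7.42% of all genes. DESeq2 called 0 members in these 3 tests.

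Between the 10-month and the 6-month mice, 14 of 26 members passed, 2 higher and 12 lower, where 61.8% of all genes passed, 29.7% higher and 32.1% lower. The members' share, 14 of 26, was thus near that of all genes. Age cannot be told apart from the cohort of the mice. Slc12a5, the neuronal chloride exporter, was higher at 10 months by a log2 difference of 0.15 (SE 0.031, edgeR adjusted p = 0.000166) and Nlgn2 by 0.16 (SE 0.035). Pvalb was lower by -0.37 (SE 0.055, edgeR adjusted p = 7.19e-07), Abat by -0.27 (SE 0.047) and Slc32a1 by -0.31 (SE 0.066). Gabrg1 was lower by -0.49 (SE 0.106), Slc12a2 by -0.48 (SE 0.093) and Glra2 by -0.42 (SE 0.103). The choroid plexus markers, with which Slc12a2 moved at 6 months, were lower as well, 7 of 7 past the threshold with a median of -3.87, and their part in the change of Slc12a2 was not tested. Gabrb2, Gad2, Slc6a11, Gad1, Gabra2 and Glrb were lower by -0.18, -0.19, -0.23, -0.12, -0.16 and -0.094. The median over the 26 was -0.113, and over all genes -0.015.

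In levels, Pvalb was 24.6 to 38.5 CPM in the 16 mice at 6 months and 18.7 to 34.3 CPM in the 22 at 10 months. Abat was 293 to 348 CPM at 6 months and 231 to 344 CPM at 10 months. Slc12a5 was 471 to 578 CPM at 6 months and 484 to 633 CPM at 10 months. Glra2 was 9.14 to 15.8 CPM against 4.69 to 12.8 CPM. The ages overlapped in range for each of these genes.

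Without the 9 mice of 10 months that had few dentate markers, 23 of 26 members passed, against 70.1% of all genes. Then 4 were higher at 10 months, Gabrd by 0.43 (SE 0.063), Slc12a5 by 0.19, Gabra4 by 0.15 and Nlgn2 by 0.083, and 19 were lower. Gabra3, at -0.38 (SE 0.233, edgeR adjusted p = 0.162) with all mice, was -1.29 (SE 0.111, edgeR adjusted p = 9.73e-10) without them. Glra3 went from -0.33 to -0.98, Gabrg1 from -0.49 to -0.82 and Lhx6 from -0.023 to -0.34. Pvalb was nearly the same in both fits, at -0.37 and -0.39. The 13 mice kept had more dentate markers, 561 to 900 CPM, than the 6-month mice, and the part of tissue composition in these differences was not tested further. Gabra5, Gabbr1 and Gphn passed in neither fit.

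**Figure D4:**
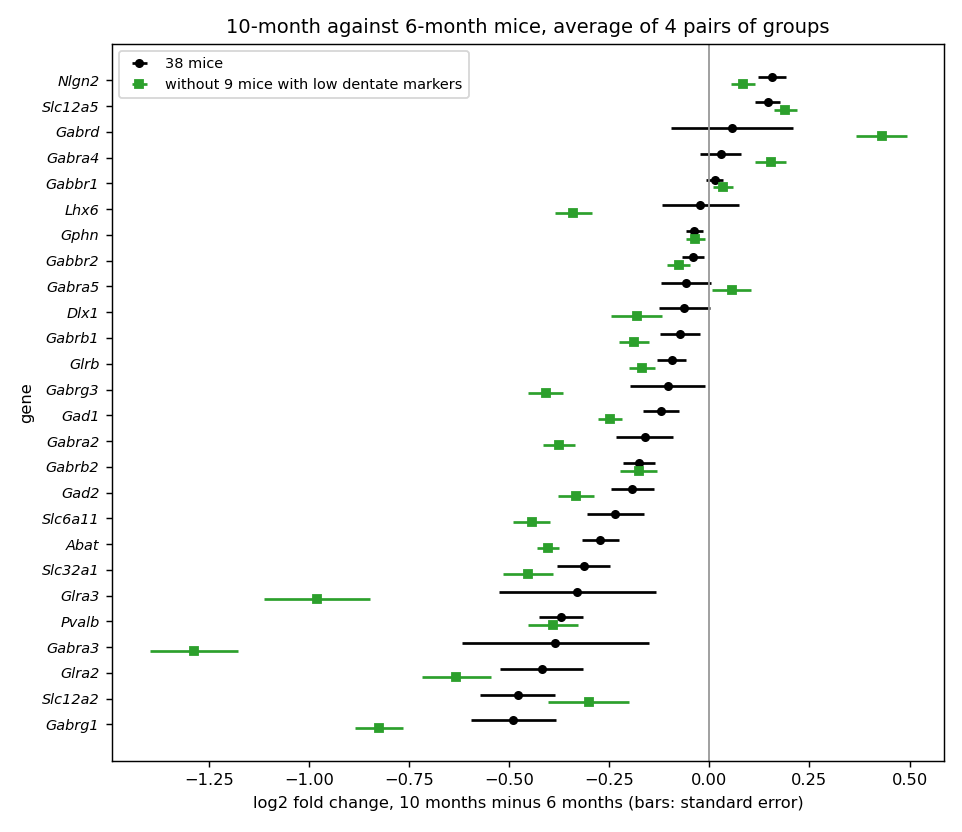
Log2 fold change of each member between 10-month and 6-month mice (horizontal axis, bars are the SE), averaged over 4 pairs of groups, for all 38 mice (black) and without the 9 mice with few dentate markers (green). Most members lie left of 0, and leaving out the 9 mice moved Gabra3 from -0.38 to -1.29 and Gabrd from 0.057 to 0.43.

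Of the chloride cotransporters, Slc12a2 is also strongly expressed by the choroid plexus, and at 6 months it was the only member that did not overlap between mice with many and with few choroid plexus markers, where 3.94% of all genes did not overlap. It was 111 to 149 CPM in the 10 mice with many and 74.9 to 94.8 CPM in the 6 with few, whereas Slc12a5 overlapped at 471 to 553 and 507 to 578 CPM. At 10 months the mouse with the highest Slc12a2, 117 CPM in APPPS1ΔE9 anle138b replicate 5, also had the highest choroid plexus sum, 4382 CPM. The log2 fold change of Slc12a2 for genotype in placebo mice at 6 months was -0.32 (SE 0.21), and -0.046 (SE 0.074) with the choroid plexus level as a covariate. Gabbr1 lay the other way, at 662 to 744 CPM in the mice with many choroid plexus markers and 741 to 781 CPM in the others, and Gabbr2 likewise, at 328 to 366 against 362 to 392 CPM.

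**Figure D5:**
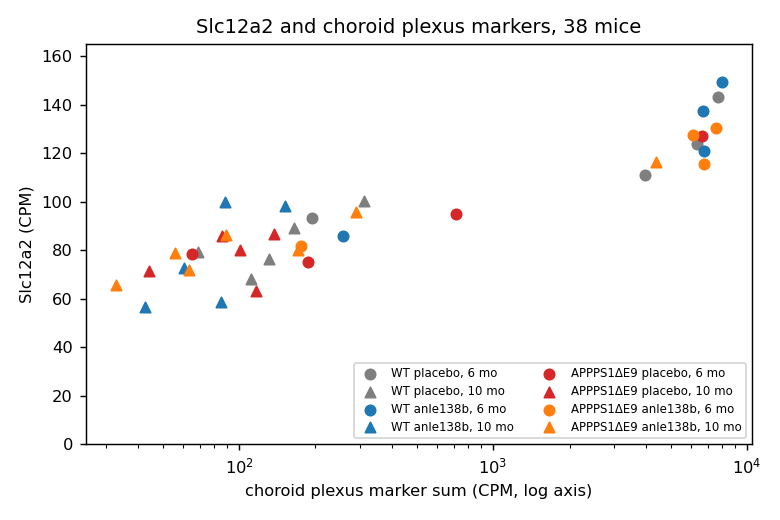
Slc12a2 level in CPM (vertical axis) against the sum of 7 choroid plexus markers in CPM (horizontal axis, log scale) in 38 mice, circles for 6 and triangles for 10 months, coloured by group. The 11 mice on the right, 10 of them at 6 months, sit at 111 to 149 CPM of Slc12a2, above the others.

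Of 83 further genes of GABA and glycine receptors, receptor trafficking, GABA-B partners, transport and metabolism, chloride transport and interneuron identity, 74 to 77 could be tested in a comparison of a pair of groups, and 0 passed in each of the 8. At an unadjusted p under 0.05 there were 9 of 75 for genotype in placebo mice at 6 months, against 11.1% of all genes, and 11 of 77 for anle138b in APPPS1ΔE9 mice at 6 months, against 13.1%. Between 10 and 6 months, 44 of 78 passed, or 56.4% against 61.8% of all genes, with 16 higher and 28 lower. Gabarap, a trafficking factor that binds GABA-A receptors, was lower by -0.32 and its relative Gabarapl1 by -0.18. Stk39, a kinase that acts on the chloride cotransporters, was lower by -0.58, while the chloride channel Clcn2 was higher by 0.40.

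Whether members varied together among mice of a group was followed in fixed pairs, as the deviations from the group means on the log2 CPM scale. At 6 months the relation was computed over all 16 mice, except for Slc12a5 and Slc12a2, and within the 10 mice with many choroid plexus markers. At 10 months it was computed within the sets of 9 and 13 mice. This gave 39 relations in all, with p-values from 100000 permutations within groups. The relations over 16 mice join mice with many and with few choroid plexus markers, so a difference between these sets can enter them. The 9 mice with few dentate markers were 2 or 3 to a group, and the 10 with many choroid plexus markers 1 or 3. Few distinct permutations exist in such sets, so p has a floor, which is highest in the 9 mice. A p over the threshold there does not show that a relation is absent. Gad1 and Gad2 were related at 6 months, with Pearson's r = 0.861 and Spearman's rho = 0.862 over 16 mice (permutation p = 0.00129 and 0.00115, adjusted 0.0503 and 0.0438). Without the 2 mice farthest from the median, r was 0.765. Within the 10 mice with many choroid plexus markers r was 0.939 (rho 0.830, permutation p = 0.00523 for both, adjusted 0.068 and 0.051). In the sets of 9 and 13 mice at 10 months it was 0.408 and 0.489, with adjusted permutation p of 0.486 and 0.402.

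The GABA-B subunits Gabbr1 and Gabbr2 had r = 0.759 and rho = 0.744 at 6 months (permutation p = 0.00318 and 0.00337, adjusted 0.062 and 0.0438), and r was 0.681 without the 2 farthest mice. These values join both choroid plexus sets. Mice with many of these markers had lower medians than those with few, 718 against 749 CPM for Gabbr1 and 351 against 373 CPM for Gabbr2. Within the 10 mice with many choroid plexus markers r was 0.606 and rho 0.370, with adjusted permutation p of 0.444 and 0.674, so within that set it did not pass the threshold. Dlx1 and Lhx6 had r = 0.788 and rho = 0.747 in the 13 mice with more dentate markers at 10 months (permutation p = 0.00741 and 0.0114, adjusted 0.0722 and 0.0887), and r was 0.640 without the 2 farthest, but 0.213 at 6 months. In the same 13 mice Slc12a5 and Slc12a2 had r = -0.775 and rho = -0.934 (permutation p = 0.0166 and 0.00296, adjusted 0.129 and 0.0438), with r at -0.841 without the 2 farthest. In the 9 mice with few dentate markers, where few permutations were possible, r was 0.043 (rho 0.067, adjusted permutation p = 0.962 and 0.957). In the 10 mice with many choroid plexus markers at 6 months r was -0.592 (rho -0.661, adjusted permutation p = 0.444 and 0.347). Gad2 and Slc32a1, Gabra4 and Gabrd, Pvalb and Lhx6, and Pvalb, Slc6a11 and Gabrd with marker levels gave no adjusted p under 0.1.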

How the data were processed

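Hippocampal RNA of 38 mice was sequenced from TruSeq mRNA libraries. STAR was used by the authors for alignment to mm10. Reads were assigned to genes by HTSeq (intersection-nonempty), and the authors deposited the raw counts of 1 library per mouse; the annotation release and the strand setting are not given in the sources used here. Without strand, reads of Gabra4 and Gabrb1, Slc32a1 and Gm14205, Dlx1 and Dlx1as, and Gabra5 and Gm9962 cannot be told apart where their exons overlap. Mice were grouped by the sample titles, and the members and gene lists were chosen with earlier results of these data known.

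From the deposited counts, genes that passed filterByExpr (minimum count 10, minimum total 15) were normalized by TMM and tested with the quasi-likelihood test of edgeR 4.0.16 (R 4.3.3; glmQLFit, robust), for each pair of groups and for contrasts of 1 model with 8 group means. Adjusted p-values are Benjamini-Hochberg over all genes tested, with 0.1 as threshold. The SE is the log2 fold change over the square root of F. Levels are CPM with TMM over 38 mice, or RPKM over the exon length of GENCODE M21 (GRCm38); log2 CPM had a prior count of 2. Named are all members past the threshold, the member with the smallest p in each direction of each pairwise comparison, and Gad1, Gad2, Slc32a1 and Pvalb. Others were added after their values were seen. Alternatives were DESeq2 1.42.0, RLE size factors, no filter, an adjusted p of 0.05 and 1 model of all mice. Further ones were the replicate number as a block, each mouse left out, and a prior count of 0.5 for the relations. Y-linked expression as a covariate was planned for the model of all mice and for pairs in which it varied within both groups. For other pairs it was chosen after seeing the data, as were marker levels as covariates and the exclusion of mice by dentate markers. The test was tried on simulated data. No 2 libraries of a group agreed within sampling noise, with a chi-square per degree of freedom of at least 3.17 in 75 pairs, and nothing in the labels states separate litters or days, so p-values cover the spread between these mice. Lane follows the groups and could not be fitted as a term in most comparisons. Permutation tests were two-sided. Promoter windows are from RefSeq. Some results on genes outside the 26 are not reported here.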

Additional observations from a re-analysis of the deposited data

Results flagged for a closer look

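In 14 of 208 combinations of a member and a group of 4 to 7 mice, 1 mouse stood apart from the rest by Dixon's test; about 1 in 20 do so by chance. At 6 months these were Gabra3 in APPPS1ΔE9 anle138b replicate 2 (97.6 CPM, the next mouse at 90.8), Gabra5 in APPPS1ΔE9 placebo replicate 1 (196 CPM, next 216) and in WT anle138b replicate 4 (255 CPM, next 212), and Gabrg1 in APPPS1ΔE9 placebo replicate 1 (28.6 CPM, next 24.3). APPPS1ΔE9 anle138b replicate 4 stood apart for Gabrb1 (333 CPM, next 306) and Gabrb2 (169 CPM, next 139). WT placebo mice stood apart for Gabbr2 in replicate 2 (331 CPM, next 361) and Gad2 in replicate 3 (242 CPM, next 192).

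At 10 months WT anle138b replicate 4 was low for Gabra5 (132 CPM, next 218) and Gabbr1 (691 CPM, next 742), and WT placebo replicate 1 was low for Gabbr1 (659 CPM, next 737); this mouse also had the highest sum of hypothalamus and pituitary markers of all mice, 741 CPM. APPPS1ΔE9 anle138b replicate 7 was high for Gabbr2 (387 CPM, next 350). Of the APPPS1ΔE9 placebo mice, replicate 2 was high for Glrb (202 CPM, next 180) and replicate 1 for Slc6a11 (211 CPM, next 144). WT anle138b replicate 4, WT placebo replicate 1 and both APPPS1ΔE9 placebo mice were among the 9 with few dentate markers; whether this bears on these values was not tested.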

How the results depend on the processing

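Of 428 counts of members called under the alternatives, 418 kept their value within 1.5 times. A count of 0 that stayed 0 was taken as kept, and the main count was 0 in every comparison but that between ages. Of 954 log2 fold changes of single members, 941 kept their direction and their side of the threshold, with 2 weaker, 8 stronger and 3 reversed. For genotype in placebo mice at 6 months, 1 member passed with DESeq2 and 1 without a filter (Gabrg1), and leaving out single mice gave 0 to 1, with 1 only without APPPS1ΔE9 placebo replicate 1. In anle138b mice at 6 months leaving out single mice gave 0 to 1, with Slc32a1 only without APPPS1ΔE9 anle138b replicate 4. For anle138b in APPPS1ΔE9 mice at 6 months, 1 passed with DESeq2, 1 without a filter, 2 with the dentate level as a covariate (Gabrg1 and Glra2), and 0 to 1 without single mice. For anle138b in WT mice at 6 months, lane 4 held 2 treated and 4 placebo mice, and 0 members passed within that lane. With all mice of these groups 0 of 16766 genes passed, so the count within the lane cannot show whether lane matters. For genotype over all mice, 3 passed with the dentate level as a covariate. Between ages, where 61.8% of all genes passed in the main test, 23 members passed without the 9 mice with few dentate markers, against 70.1% of all genes. With the dentate covariate 18 passed, at an adjusted p of 0.05 13, and without single mice 13 to 17. The shares of all genes in these last settings are not given here, so their counts are not read as results on the members. Gabra2 between ages missed the threshold at 0.05 and without WT placebo 6-month replicate 4. Reversed were Lhx6 for genotype in placebo mice at 10 months without APPPS1ΔE9 placebo replicate 1 (-0.017, up to 0.29 without other single mice), and, among 10-month mice with over 500 CPM of dentate markers, Gabra4 for genotype with anle138b (-0.010) and Nlgn2 for anle138b in WT mice (-0.040). The cause was not tested. Over all genes, calls for genotype in placebo mice at 6 months were 12, against 91 with DESeq2, 110 without a filter and 205 without APPPS1ΔE9 placebo replicate 1. In anle138b mice at 6 months they were 8, against 42 with DESeq2. For anle138b in APPPS1ΔE9 mice at 6 months they were 9, against 208 with DESeq2, 120 without a filter and 1354 with the dentate covariate. At 10 months they were 55 and 124 for genotype, against 116 and 188 with DESeq2, and for genotype over all mice 266, against 668 with the dentate covariate.

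Without the 2 farthest mice, r at 6 months went from 0.861 to 0.765 for Gad1 and Gad2, from -0.177 to 0.160 for Pvalb and Lhx6, from 0.213 to -0.130 for Dlx1 and Lhx6, from 0.056 to -0.220 for Pvalb and thalamus markers, and from 0.541 to 0.268 for Slc6a11 and thalamus markers. Relations over all mice or all 10-month mice were not given because the mice fall into sets. Whether replicate numbers pair the mice could not be settled. In no comparison did every same-numbered pair correlate above 0.1. For anle138b against placebo in WT mice, however, the mean r of such pairs was 0.387 at 6 months and 0.425 at 10 months. In the other comparisons the mean r ran from -0.381 to 0.219. With the replicate block, 0 members passed in each of the 8 pairwise comparisons and 16 between ages. The shares of all genes with the block are not given here, so these counts are not read as results on the members. Depth limits Glra3 and Glra2 most, whose lowest counts in a mouse were 45 and 102.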
